A study of Mus musculus with 122 samples.

Results

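Bhlhe40, Bhlhe41, Maf, Klf2, Klf4, Myc, Spi1 and Egr2 are 8 of the 22050 genes in the count tables, and their transcripts were followed across 99 RNA sequencing libraries of mouse lung macrophages and fetal monocytes. They were chosen by name, as transcription factors known for setting macrophage identity or the capacity of macrophages to divide. Earlier results of these data were known at that time, so the choice was not independent of them. The study asked what loss of C/EBPβ, a basic leucine zipper transcription factor encoded by Cebpb, does to alveolar macrophages, the resident macrophages of the airspace. Gene counts covered 31 groups of 2 to 4 libraries, and regions bound by C/EBPβ (2 libraries) or open to a transposase (5 libraries of cultured cells) were also used.

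Most groups were adult alveolar macrophages sorted from airway lavage. Mice of the strain C/EBPb tm1Pfj on a mixed background were Cebpb +/+, Cebpb +/- or Cebpb -/-, and in the first set the Cebpb -/- cells were sorted by surface CD11b into a low and a high fraction. Further libraries of that strain came from females of facility 1 (also with Cebpb +/- mice), females of facility 2 and males, and from a set collected beside an open chromatin experiment, called the ATAC-matched set here. Mice of the strain C/EBPtm1.2Acle on a mixed background were Lip +/+ or Lip Lip/Lip. The Lip allele is known to leave the short, inhibitory isoform of C/EBPβ in place of the full-length ones. A pair of conditional designs on the C57BL/6 background removed a floxed Cebpb (Cebpbtm1.1Elgaz/J). In one, LyzM Cre/Cre Cebpb flox/flox cells were set against Cebpb flox/flox cells without Cre. In the other, CD11c +/Cre Cebpb flox/flox cells were set against CD11c +/Cre cells without the floxed allele, so both arms carried Tg(Itgax-cre,-EGFP)4097Ach/J. LyzM and CD11c Cre act in other myeloid cells as well.

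At embryonic day 18 (E18), premature alveolar macrophages came from digested lungs of Cebpb +/+ and Cebpb -/- fetuses and, on C57BL/6, of Csf2rb +/+ and Csf2rb -/- fetuses (Csf2rbtm1Cgb/J). Csf2rb encodes the shared signalling chain of the receptor for the cytokine CSF2, on which alveolar macrophages depend. Ly6Chi fetal monocytes, from which alveolar macrophages arise, were sorted from E18 lungs of Cebpb +/+ and Cebpb -/- fetuses. In mixed bone marrow chimeras, lethally irradiated CD45.1/2 recipients were given 33% wild-type marrow (B6.SJL-Ptprca-Pepcb/BoyJ, CD45.1/1) and 66% CD11c +/Cre Cebpb flox/flox marrow (CD45.2/2). Alveolar macrophages of each donor were sorted from digested lungs 5 and 10 weeks after transfer, so the donors also differed in CD45 allele and in Cre. The cultured cells of the open chromatin data were lavage macrophages grown with 20 ng/ml CSF2 for 7 days and then given 1000 units/ml interferon α to switch on MxCre, in MxCre+ controls (2 libraries) and MxCre+ Cebpb flox/flox cells (3 libraries). The C/EBPβ data came from wild-type C57BL/6 lavage macrophages.

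Bhlhe40 and Bhlhe41 encode basic helix-loop-helix repressors that bind the E-box CACGTG and are known for sustaining the identity and self-renewal of alveolar macrophages. Maf encodes c-MAF, a basic leucine zipper factor that restrains macrophage division, and alveolar macrophages are known for low levels of it. Myc, which binds the same E-box with its partner MAX, and the zinc finger factor Klf4 are known to drive macrophage proliferation where c-MAF is low. Klf2 encodes a related zinc finger factor linked to quiescence and to resident macrophage identity. Spi1 encodes PU.1, the ETS factor required for myeloid lineages, and Egr2 a zinc finger factor induced by growth factor signals and expressed in alveolar macrophages.

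Levels are given in CPM, counts scaled to library size, within each of the 3 gene count tables. The ATAC-matched sets had a count table of their own, Ly6Chi monocytes and chimeras shared another, and all other libraries shared the last. Levels set side by side from different count tables carry a separate scaling, while experiments of the same count table share it. Libraries held 642269 to 17834909 counts, and 3 counts, taken as the floor of detection, were worth 0.17 to 5.02 CPM. Such intervals and floors cover counting error only. Cebpb was at 289 to 3940 CPM in the control libraries and at 9.52 to 155 CPM in all homozygous deletion libraries, 591 to 1190 CPM in Cebpb +/- libraries, and not lower in Lip Lip/Lip than in Lip +/+ libraries. The oligo(dT)-primed counts do not separate C/EBPβ isoforms. Csf2rb was at 295 to 364 CPM in Csf2rb -/- libraries and at 834 to 1220 CPM in their controls. By these levels no library of a Cebpb or Csf2rb genotype went against its label. The Lip genotype could not be checked this way. The summed level of 10 defining alveolar macrophage markers was lower in every homozygous mutant group than in its control, for example 8410 to 10400 CPM in the adult wild type, 2170 to 3030 CPM in Cebpb -/- CD11b low cells and 641 to 1650 CPM in CD11b high cells, and the part of this shift in the results below was not tested. In sorted bulk samples, fewer cells of a type and less RNA per cell cannot be told apart. The labels do not say which libraries came from separate animals, so p-values measure the spread between these libraries.

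Of the 8 regulators, Bhlhe40 differed from its control most regularly. It rose in 12 of 13 experiments with a homozygous Cebpb mutant group and a control group of their own, and in all 13 each mutant library lay above each control library. In those comparisons 9.75% to 63.2% of all genes were apart in either direction. Maf rose in 7 of the 10 such experiments in which it could be tested. Myc fell in 5 and rose in 2, Klf2 fell in 4 and rose in 1, Klf4 rose in 4 and fell in 0, Spi1 fell in 3, Egr2 fell in 2 and rose in 1, and Bhlhe41 rose in 2 of 11. An experiment with a CD11b low and a CD11b high group is counted here when either group passed. Facility 1 females, facility 2 females and males are counted separately, but they shared a single fit and its estimate of spread. Both chimera times likewise shared a fit, so the tallies are not of independent experiments. A gene was called changed at an adjusted p under 0.05 in edgeR's quasi-likelihood test with Benjamini-Hochberg adjustment over all genes tested in that comparison.

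Counts of called regulators were read against the share of all tested genes called in the same comparison. In adult Cebpb -/- cells, 2 of 8 regulators passed in the CD11b low fraction, where 15.1% of all genes did, and 4 of 8 in the CD11b high fraction, where 24.0% did. Maf, 1 of 8, differed between the fractions themselves, where 3.80% of genes did. In facility 1 females 5 of 8 passed (23.2% of all genes), in facility 2 females 7 of 8 (47.6%) and in males 3 of 8 (10.9%). 0 of 8 passed in Cebpb +/- females of facility 1 (0.634%, 70 genes in all). Myc, Bhlhe40 and Egr2, 3 of 8, had an unadjusted p under 0.05 there, and 1, Myc, passed in DESeq2, which called 216 genes. The conditional deletions gave 0 of 7 for LyzMCre (4.68%) and 2 of 7 for CD11cCre (16.8%). With LyzMCre 1 of 7, Bhlhe40, had an unadjusted p under 0.05, and 0 passed in DESeq2, which called 367 genes. The share of all genes at an unadjusted p under 0.05 was not counted, so those counts have no background here. Lip Lip/Lip cells gave 5 of 8 in the CD11b low (25.8%), 4 of 8 in the CD11b high fraction (39.3%), and 2 of 8 between the fractions (19.5%). At E18, 4 of 7 passed in Cebpb -/- premature alveolar macrophages (21.5%), 5 of 7 in Csf2rb -/- ones (22.5%) and 1 of 7 in Ly6Chi monocytes (3.62%). In chimeras, 1 of 8 passed at 5 weeks (22.5%) and 5 of 8 at 10 weeks (45.5%). The ATAC-matched sets gave 3 of 8 for Cebpb -/- (27.2%) and 2 of 7 for Lip Lip/Lip (4.94%). These shares mean that a count such as 5 of 8 at 10 weeks stood near the background, and the named genes and their sizes carry the description.

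The libraries of mutant and control groups lay fully apart for 3 of the 8 regulators in adult CD11b low cells (21.3% of all genes), 4 in CD11b high cells (24.9%) and 2 between those fractions (8.12%). They were apart for 3 in Cebpb +/- (29.7%) and 5 in Cebpb -/- (63.2%) females of facility 1, 7 in facility 2 (61.6%) and 6 in males (58.8%), where groups of 2 or 3 libraries are often apart. The counts were 4 for LyzMCre (46.4%), 3 for CD11cCre (26.4%), 5 and 4 for the Lip CD11b low (31.4%) and high (41.3%) fractions and 1 between them (20.3%). At E18 they were 5 without Cebpb (31.2%), 7 without Csf2rb (37.4%) and 3 in monocytes (15.8%). In chimeras 2 were apart at 5 weeks (40.6%), 4 at 10 weeks (41.2%) and 3 between the times in wild-type cells (34.6%). In the ATAC-matched sets 3 were apart without Cebpb (43.4%) and 4 with Lip Lip/Lip (9.75%).

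**Figure D1:**
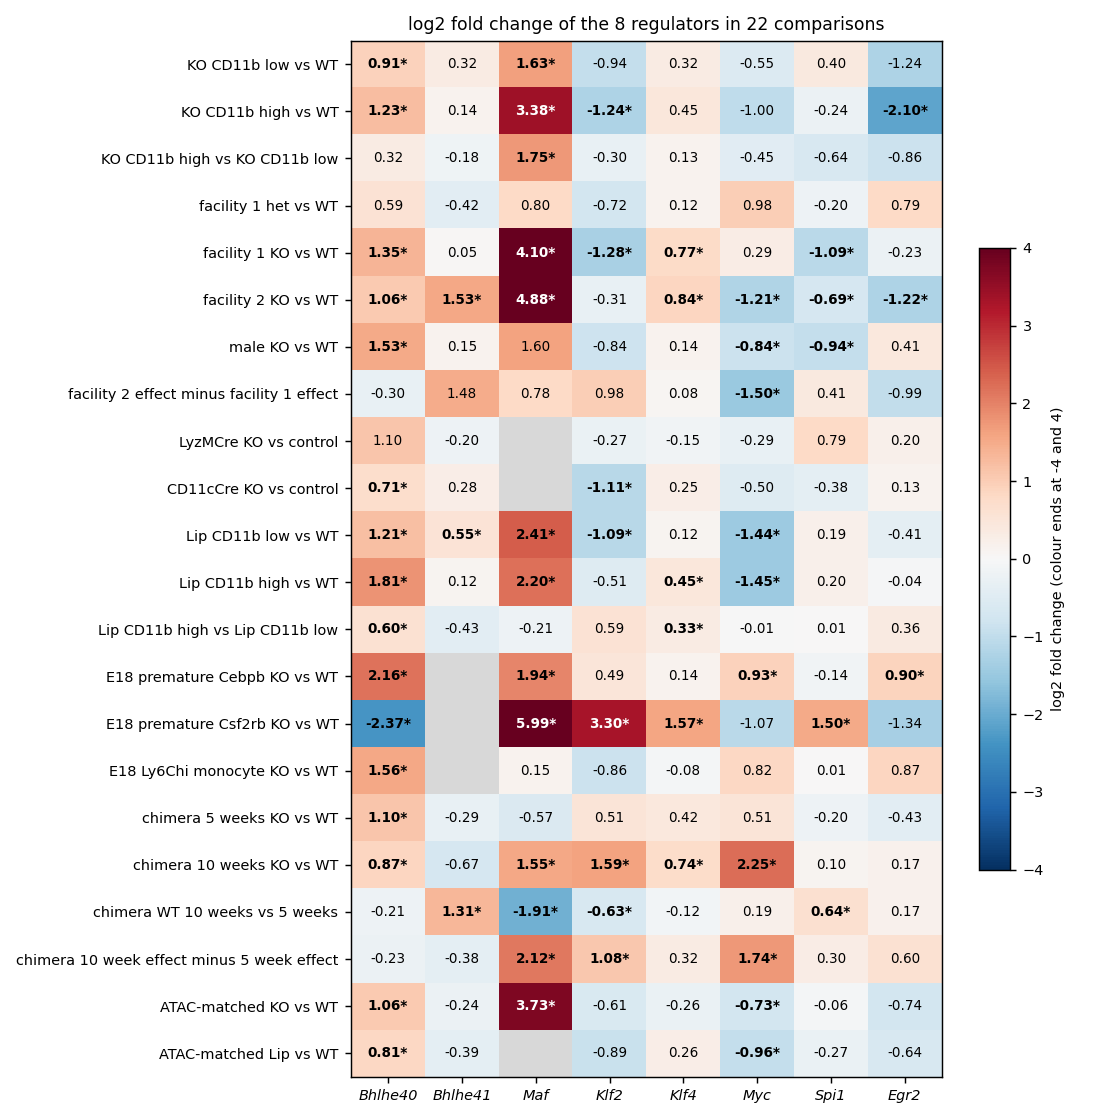
Log2 fold change of each regulator (columns) in each comparison (rows), with positive values red and negative values blue, an asterisk and bold type for an adjusted p under 0.05, and grey for genes that did not pass the low-count filter. Bhlhe40 is positive in every row that sets a Cebpb or Lip mutant group against its control (0.71 to 2.16 where called). It is -2.37 in the Csf2rb row, while Klf2 and Myc change sign between rows.

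The genes lie in separate places of the genome (mm10 coordinates), and their surroundings were compared with the regions called by the authors. C/EBPβ regions called in both libraries lay within 10 kb of 6 of the 8 genes, against 62.6% of 9010 genes with a mean of at least 5 CPM, so the share was near the background. Spi1 (chr2:91082374-91115759) had 8 such regions, Bhlhe40 (chr6:108660629-108666925) 3, Klf2 (chr8:72319062-72321654), Klf4 (chr4:55527137-55532475) and Myc (chr15:61985341-61990361) 2 each, and Egr2 (chr10:67534469-67542188) 1. Bhlhe41 (chr6:145858243-145865420) and Maf (chr8:115703253-115706894) had 0. Within 50 kb Bhlhe41 had 5 and Maf still 0, at 83% of all genes. Near Bhlhe41, 5 regions within 10 kb were called in 1 of the 2 libraries only.

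The strongest regions are described by the authors' fold over the local background, in the first and second library. A region 1026 bp from Myc on its low-coordinate side (chr15:61983033-61984315) had 66.9 and 49.37, and a region over the low-coordinate end of Spi1 (chr2:91082283-91083568) 52.32 and 36.2. At Bhlhe40 a region of 2953 bp spanned the low-coordinate end of the gene (chr6:108658029-108660981) with 42.95 and 23.86. The region over the far end of Klf2 (chr8:72321588-72323203) had 40.2 and 35.38. At Klf4 the stronger region lay 1681 bp beyond the gene's start (chr4:55534156-55535077), with 22.65 and 27.15. At Egr2 the region overlapped the gene (chr10:67535106-67535909) with 17.18 and 5.76.

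Open chromatin of cultured macrophages was sorted by the libraries in which a region was called. Regions open in both controls and in no deleted library lay within 10 kb of Bhlhe40 (1), Bhlhe41 (1), Klf2 (2), Klf4 (1) and Spi1 (1), where 21.2% of all genes had at least 1. The Klf4 one (chr4:55534504-55534772) lay inside the C/EBPβ region named above, and the Bhlhe40 one (chr6:108659251-108659647) inside the C/EBPβ region at the start of that gene. Regions open in all 3 deleted libraries and in no control lay near Myc (1), Spi1 (1) and Egr2 (2), where 23.3% of all genes had at least 1. Near Maf 0 regions were of either kind. With peaks kept at a −log10 q of at least 10, controls-only regions were left near Klf2 (1) and Spi1 (2), and those near Bhlhe40, Bhlhe41 and Klf4 were lost, where 20.9% of all genes had at least 1. Regions of the deleted libraries alone were then near 0 of the 8 genes, where 10.1% of all genes had at least 1. With 2 and 3 libraries these are presence calls without a test, and the cells had been cultured and given interferon, unlike the cells of the count libraries.

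**Figure D2:**
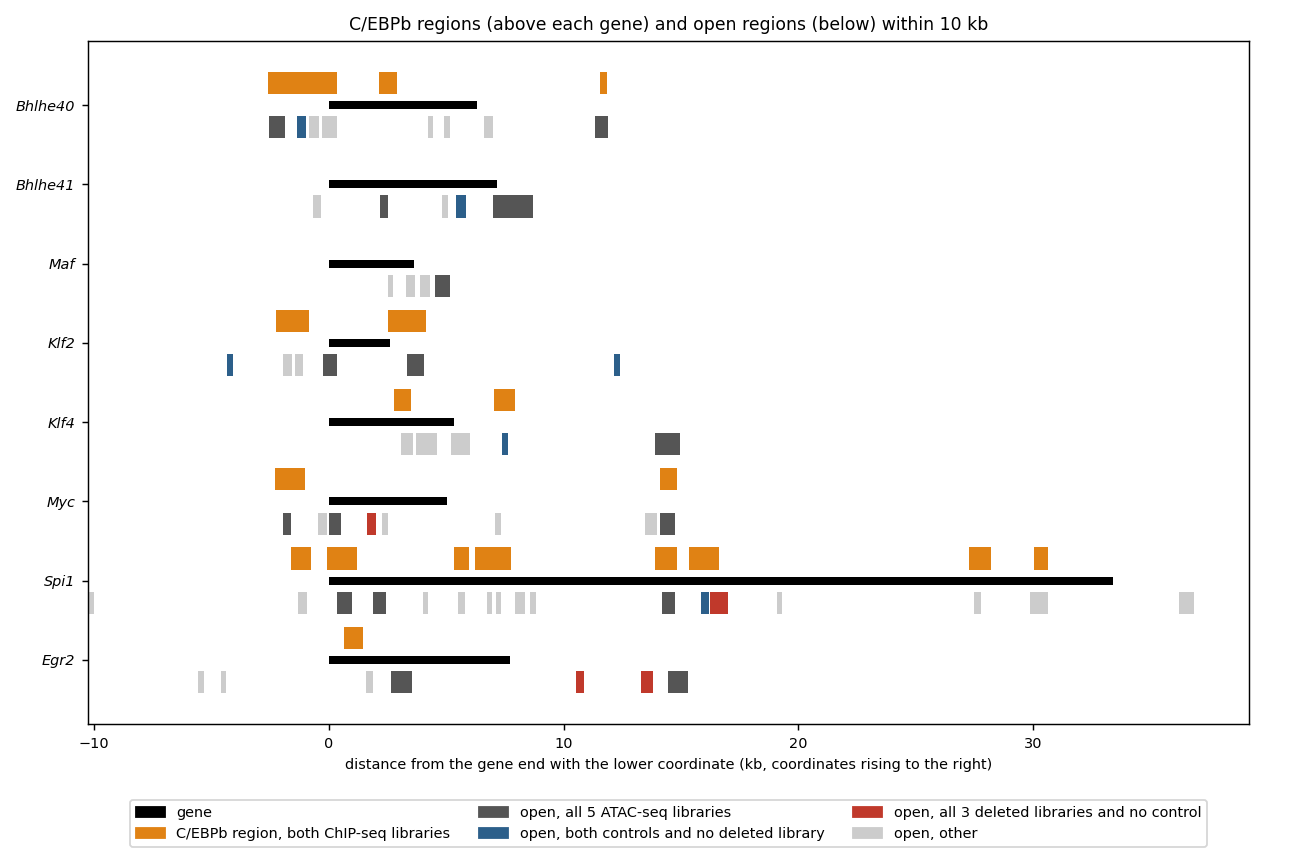
Each gene (black bar) with the C/EBPβ regions found in both libraries (orange, above) and open regions of cultured macrophages (below, coloured by the libraries that hold them), drawn by distance in kb from the gene end with the lower coordinate. Spi1 carries 8 C/EBPβ regions along its length, Bhlhe41 and Maf carry 0, and the blue bars mark the regions open in controls only.

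The RefSeq promoter table (GRCm38.p6, 250 bases before to 50 after a start) matched 4 of the 8 genes, Bhlhe41, Klf2, Klf4 and Egr2; Bhlhe40, Maf, Myc and Spi1 were not matched. The promoters are shown because C/EBPβ regions or the shared E-box of BHLHE40, BHLHE41 and MYC fall in them. Capitals mark the E-box CACGTG, which reads the same on both strands. Each sequence runs 5′ to 3′ on the strand of its gene. The promoter of Egr2 nearest the C/EBPβ region (chr10:67535249-67535548, plus strand) overlapped that region in both libraries and no open region. That of Klf4 (chr4:55532426-55532725, minus strand) overlapped no C/EBPβ region and an open region found in some libraries. Those of Bhlhe41 (chr6:145865371-145865670, minus strand) and Klf2 (chr8:72318812-72319111, plus strand) each overlapped a C/EBPβ region of 1 library and an open region of all 5.
Egr2: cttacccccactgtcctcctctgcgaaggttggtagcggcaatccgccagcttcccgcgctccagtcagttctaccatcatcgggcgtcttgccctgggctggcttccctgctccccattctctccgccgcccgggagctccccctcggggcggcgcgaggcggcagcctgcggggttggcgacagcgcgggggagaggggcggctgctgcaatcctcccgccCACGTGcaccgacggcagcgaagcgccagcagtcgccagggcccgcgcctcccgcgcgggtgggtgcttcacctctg
Klf4: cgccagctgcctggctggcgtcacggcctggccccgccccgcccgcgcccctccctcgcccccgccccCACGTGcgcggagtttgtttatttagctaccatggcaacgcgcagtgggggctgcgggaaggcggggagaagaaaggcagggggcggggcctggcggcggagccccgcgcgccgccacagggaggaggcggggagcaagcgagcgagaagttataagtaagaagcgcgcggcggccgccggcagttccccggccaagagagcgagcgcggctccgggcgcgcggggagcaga
Bhlhe41: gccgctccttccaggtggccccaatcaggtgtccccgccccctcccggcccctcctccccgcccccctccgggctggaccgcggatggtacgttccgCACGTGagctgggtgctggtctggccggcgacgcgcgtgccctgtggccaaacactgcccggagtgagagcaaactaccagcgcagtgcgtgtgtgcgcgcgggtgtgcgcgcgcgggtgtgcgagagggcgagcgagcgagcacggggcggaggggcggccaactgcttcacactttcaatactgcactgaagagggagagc
Klf2: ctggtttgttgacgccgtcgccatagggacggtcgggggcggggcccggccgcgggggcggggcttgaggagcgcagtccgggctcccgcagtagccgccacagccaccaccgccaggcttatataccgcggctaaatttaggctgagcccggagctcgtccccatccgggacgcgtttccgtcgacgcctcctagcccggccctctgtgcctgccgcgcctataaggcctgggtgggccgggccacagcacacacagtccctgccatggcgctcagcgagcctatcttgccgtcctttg

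Promoters of 3 of the 4 matched genes held CACGTG, which 7.17% of 32544 mouse promoters of this length hold. The other 4 of the 5 Egr2 entries held none. The C/EBP motif TTGCNNAA (TTNNGCAA on the other strand) was searched on both strands, is held by 10.8% of promoters and was in 0 of the 8 entries of these genes, and the AP-1 motif TGANTCA, held by 7.79%, was in 0 as well. The motifs do not overlap each other in these windows. A C/EBPβ region of both libraries overlapped 9.13% of all promoters. A match describes letters only.

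Bhlhe40 was higher in Cebpb-deficient alveolar macrophages of every source. In the adult CD11b set it was at 81.2, 105, 93.5 and 65.7 CPM in the 4 wild-type libraries, at 162, 151, 169 and 175 CPM in Cebpb -/- CD11b low cells and at 233, 181, 221 and 187 CPM in CD11b high cells. Both fractions share the 4 controls. All 8 mutant libraries lay above them, and the CD11b high libraries above the CD11b low ones. The log2 fold change was 0.91 ± 0.19 (SE, adjusted p = 0.00253) in the low and 1.23 ± 0.19 (adjusted p = 7.22e-05) in the high fraction, while the difference between the fractions did not pass (0.32 ± 0.19, adjusted p = 0.555).

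In facility 1 females the wild-type libraries had 91.0 and 98.3 CPM of Bhlhe40, Cebpb +/- libraries 129, 127 and 171 CPM and Cebpb -/- libraries 199 and 281 CPM. The 3 genotypes did not overlap and stood in the order of the number of deleted copies. The step from wild type to Cebpb -/- passed (1.35 ± 0.20, adjusted p = 9.76e-05) and that to Cebpb +/- did not (0.59 ± 0.19, adjusted p = 0.182). Facility 2 females gave 133, 124 and 118 CPM in wild type against 283 and 229 CPM (1.06 ± 0.18, adjusted p = 0.000118). Males gave 66.3 and 68.3 CPM against 170 and 214 CPM (1.53 ± 0.21, adjusted p = 5.36e-05). The facility effect on the change was not called (-0.30 ± 0.27, adjusted p = 0.548).

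With LyzMCre, Bhlhe40 was at 72.5 and 101 CPM in controls and 186 and 182 CPM in deleted libraries, apart but not past the threshold (1.102 ± 0.27, adjusted p = 0.0548). It passed without either deleted library (1.098, adjusted p = 1.07e-11, and 1.15, adjusted p = 4.31e-07), where the lone library is assumed to vary like the controls. With CD11cCre, where both arms carry Cre, controls had 97.2, 81.3 and 101 CPM and deleted libraries 150, 166, 115 and 174 CPM (0.71 ± 0.15, adjusted p = 0.00656). The ATAC-matched Cebpb set gave 83.0, 83.9 and 60.4 CPM against 131, 125 and 222 CPM (1.06 ± 0.25, adjusted p = 0.0103). Without wild-type replicate 3 that call was lost (0.91, adjusted p = 0.0584).

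Lip Lip/Lip cells, which keep Cebpb transcript, also held more Bhlhe40. The Lip +/+ libraries had 80.5, 90.9 and 73.2 CPM, the CD11b low mutants 185, 175, 189 and 214 CPM and the CD11b high mutants 318, 301, 263 and 272 CPM. The 3 groups did not overlap. The log2 fold change was 1.21 ± 0.12 (adjusted p = 2.81e-11) in the low fraction, 1.81 ± 0.12 (adjusted p = 2.46e-17) in the high fraction and 0.60 ± 0.10 (adjusted p = 8.81e-06) between them. In the ATAC-matched Lip set, 82.5, 94.7, 95.2 and 73.9 CPM stood against 157, 174, 120 and 159 CPM (0.81 ± 0.21, adjusted p = 0.0305). This last call was lost under 5 of 8 single omissions, those of Lip +/+ replicates 1, 2 and 4 and of Lip Lip/Lip replicates 1 and 2 (adjusted p 0.0765 to 0.122).

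**Figure D3:**
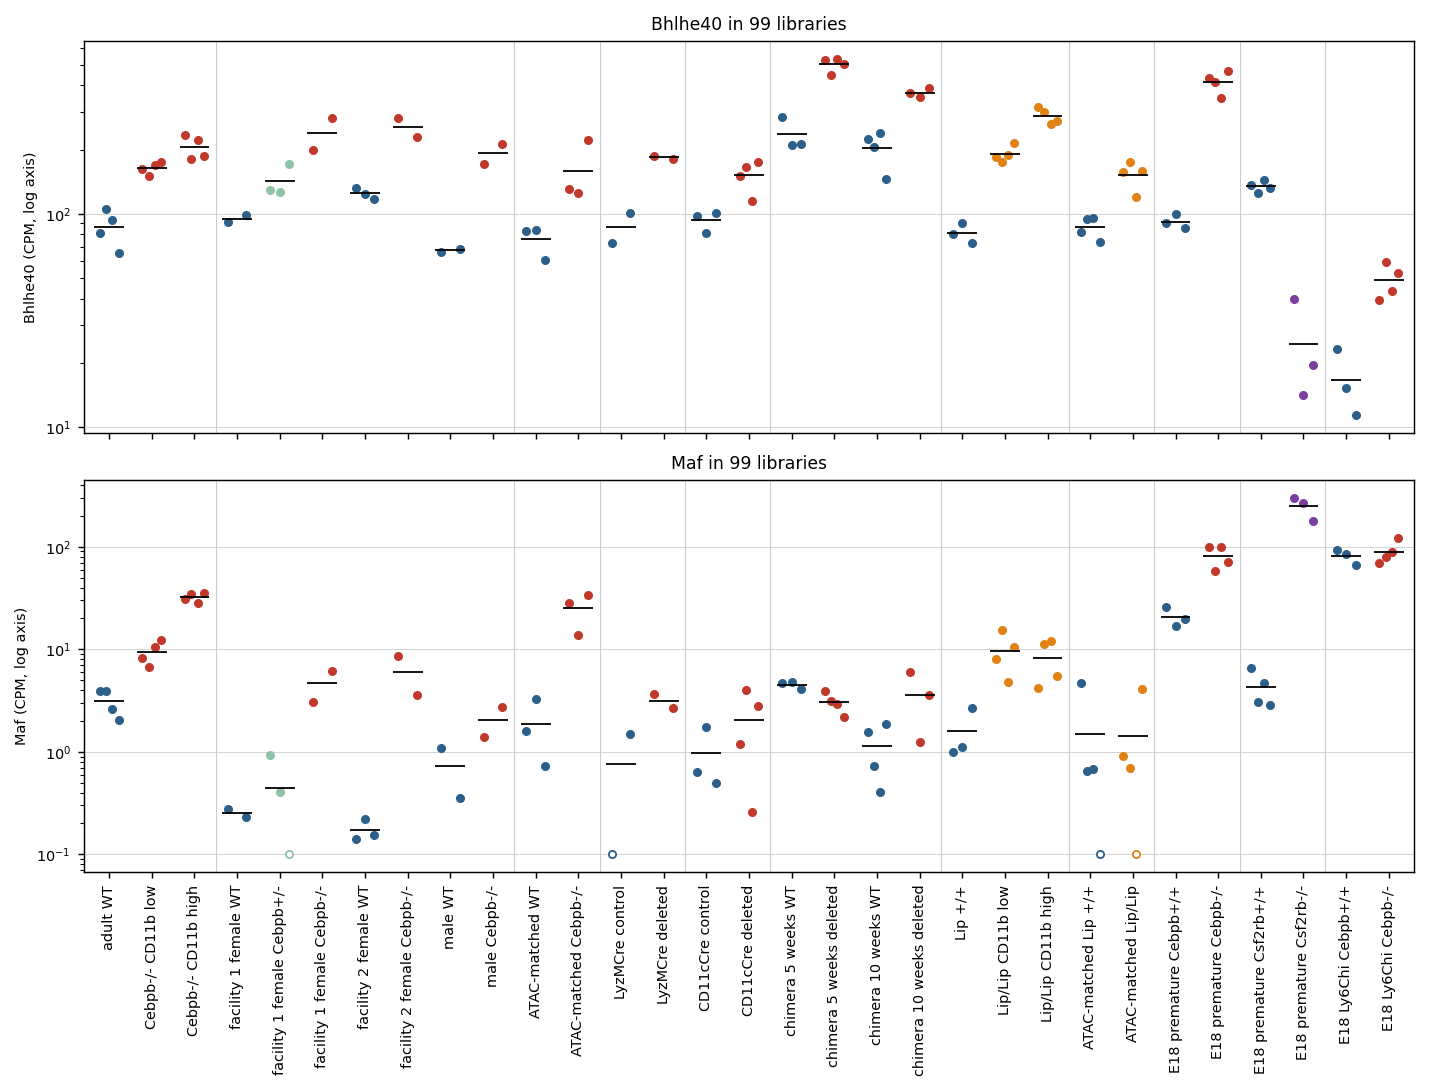
Bhlhe40 (top) and Maf (bottom) in CPM on log axes, 1 point per library and a bar at each group mean, with blue for controls, green for Cebpb +/-, red for Cebpb deletion, orange for Lip and purple for Csf2rb -/-. Open circles at the bottom are libraries with 0 counts. Bhlhe40 points of mutants sit above their own controls everywhere except in Csf2rb -/-, and Maf controls lie near 1 count in several experiments.

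At E18 Bhlhe40 rose without Cebpb and fell without Csf2rb. Cebpb +/+ premature alveolar macrophages had 90.4, 99.4 and 85.7 CPM, and Cebpb -/- ones 431, 417, 348 and 469 CPM (2.16 ± 0.20, adjusted p = 4.75e-06). Csf2rb +/+ ones had 136, 125, 144 and 132 CPM, and Csf2rb -/- ones 39.8, 14.1 and 19.4 CPM (-2.37 ± 0.37, adjusted p = 0.00172). The groups did not overlap in either set. The sets are separate fits on different backgrounds, and the difference between the 2 effects was not tested. Csf2rb -/- libraries detected 9387 to 9418 genes and their controls 11639 to 12557. Csf2rb -/- replicate 3 had 9387 genes from 2907179 counts, and Csf2rb +/+ replicate 1 had 11654 from 2549216. The part of depth in this gap between the genotypes was not tested. Nor was the part of the gap in the Csf2rb fold changes given here and below.

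In Ly6Chi fetal monocytes Bhlhe40 was low in wild type, 23.1, 15.2 and 11.4 CPM, and higher in all Cebpb -/- libraries, 39.5, 59.1, 43.4 and 52.5 CPM (1.56 ± 0.26, adjusted p = 0.00181). It was the only regulator called there in the main fit, and Klf2 passed there under other settings given below. In chimeras at 5 weeks, wild-type donor cells had 286, 210 and 211 CPM and deleted donor cells 525, 447, 535 and 502 CPM (1.096 ± 0.16, adjusted p = 0.000219). At 10 weeks the values were 224, 206, 240 and 146 CPM against 369, 354 and 388 CPM (0.87 ± 0.16, adjusted p = 0.000292). The sizes at 5 and 10 weeks did not differ by the test (-0.23 ± 0.22, adjusted p = 0.535). Over all groups Bhlhe40 was lowest in wild-type Ly6Chi monocytes (16.5 ± 6.00 CPM, SD, n = 3) and Csf2rb -/- cells (24.4 ± 13.5 CPM, SD, n = 3), which do not separate, and highest in deleted chimera cells at 5 weeks (502 ± 39.5 CPM, SD, n = 4). The lncRNA gene 0610040F04Rik overlaps Bhlhe40, and the sources used here do not say whether counting used strand, so their reads may not be told apart.

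Bhlhe41, the close relative of Bhlhe40, did not follow it. In 9 of the 11 experiments that could test it, no mutant group passed. Facility 2 females were the exception with a clear gap, 21.2, 25.8 and 21.9 CPM in wild type and 74.4 and 57.5 CPM in Cebpb -/- (1.53 ± 0.28, adjusted p = 0.000274). Facility 1 females had 23.3 and 16.7 CPM in wild type and 11.6 and 29.8 CPM in Cebpb -/-, which overlap (0.05 ± 0.34, adjusted p = 0.929), and the difference between facilities just missed the threshold (1.48 ± 0.45, adjusted p = 0.0506). It passed without facility 1 Cebpb -/- replicate 2 (2.26, adjusted p = 0.0034) or facility 2 Cebpb -/- replicate 2 (1.66, adjusted p = 0.0452). In Lip CD11b low cells Bhlhe41 was at 54.7, 60.5, 39.9 and 37.6 CPM against 17.9, 36.5 and 36.1 CPM (0.55 ± 0.20, adjusted p = 0.0381), a call lost without Lip +/+ replicate 1 (0.36, adjusted p = 0.202), CD11b low replicate 1 (adjusted p = 0.0936) or CD11b low replicate 2 (adjusted p = 0.144), in DESeq2 (adjusted p = 0.0926) and with 1 fit over the whole count table (adjusted p = 0.31).

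In the E18 cells Bhlhe41 held few counts and did not pass the filter. Cebpb +/+ premature cells had 2.48, 3.24 and 2.82 CPM and Cebpb -/- ones 0.196, 0.384, 0.399 and 0.855 CPM, from 32 and 7 counts in all, a ratio of 0.168 with an exact 95% interval of 0.0625 to 0.387. The Csf2rb sets held 78 and 6 counts, a ratio of 0.235 (0.0838 to 0.535), with Csf2rb -/- libraries at 0, 3.21 and 0.374 CPM. Ly6Chi monocytes held 2 counts in wild type and 4 in Cebpb -/-, a ratio of 1.93 (0.276 to 21.3) that included 1. In chimeras the wild-type donor cells gained Bhlhe41 with time, from 5.62, 5.20 and 8.91 CPM at 5 weeks to 6.59, 21.4, 19.0 and 19.5 CPM at 10 weeks (1.31 ± 0.36, adjusted p = 0.0165), with 1 library of the later group inside the earlier range. In deleted cells it was at 6.80, 6.49, 3.71 and 4.24 CPM and at 13.1, 10.5 and 7.19 CPM, not called against wild type at either time, but called lower at 10 weeks without wild-type replicate 1 (-0.96, adjusted p = 0.0145). The gain in wild type was lost without 5-week replicate 1 or 2 or without 10-week replicate 2 (adjusted p 0.0516 to 0.089). Over all groups Bhlhe41 was lowest in Ly6Chi monocytes of either genotype and highest in facility 2 Cebpb -/- females (65.9 ± 11.9 CPM, SD, n = 2), which overlapped the ATAC-matched wild type (62.9 ± 10.7 CPM, SD, n = 3).

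Maf was low in control lavage alveolar macrophages and rose in 7 of the 10 experiments with a homozygous Cebpb mutant in which it could be tested. In the adult CD11b set, wild-type libraries had 3.93, 3.90, 2.61 and 2.02 CPM (12 counts in all), CD11b low mutants 8.19, 6.69, 10.6 and 12.2 CPM and CD11b high mutants 31.2, 34.3, 28.1 and 35.2 CPM. The 3 groups did not overlap. The log2 fold change was 1.63 ± 0.39 (adjusted p = 0.00623) in the low fraction, 3.38 ± 0.34 (adjusted p = 3.28e-07) in the high fraction and 1.75 ± 0.27 (adjusted p = 0.000726) between them. Maf was the only regulator called between the CD11b fractions.

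In facility 1 females 2 counts of Maf in wild type stood against 47 in Cebpb -/-, 0.277 and 0.229 CPM against 3.08 and 6.21 CPM, a ratio of 17.8 with an exact 95% interval of 4.66 to 151. In facility 2 females 4 counts stood against 60, a ratio of 25.4 (9.41 to 96.1), with 0.140, 0.222 and 0.153 CPM against 8.58 and 3.55 CPM. Both passed the test (adjusted p = 0.00852 and 0.000133), and the facility 1 call was lost without either wild-type library or without Cebpb -/- replicate 2 (adjusted p 0.0553 to 0.0957). In males the ratio was 3.09 (1.26 to 9.12) and the test did not pass (adjusted p = 0.326). LyzMCre libraries held 2 and 16 counts, a ratio of 4.27 (1.01 to 38.3), and CD11cCre libraries 15 and 28 counts, a ratio of 2.08 (1.07 to 4.18), and neither set passed the low-count filter. In Cebpb +/- females the ratio of 1.81 (0.374 to 17.2) included 1.

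Lip Lip/Lip cells had 8.05, 15.5, 4.83 and 10.4 CPM of Maf in the CD11b low and 4.19, 11.3, 12.0 and 5.51 CPM in the CD11b high fraction, against 0.993, 1.12 and 2.69 CPM in Lip +/+. Each mutant library lay above each control (2.41 ± 0.52, adjusted p = 0.000342, and 2.201 ± 0.56, adjusted p = 0.00127), and the fractions overlapped (-0.21 ± 0.36, adjusted p = 0.759). In the ATAC-matched sets, Cebpb -/- libraries had 28.6, 13.7 and 33.7 CPM against 1.58, 3.26 and 0.735 CPM (3.73 ± 0.50, adjusted p = 0.000552), whereas Lip Lip/Lip held 26 counts and Lip +/+ 11, a ratio of 1.63 (0.778 to 3.65). That interval includes 1, and the group means did not show a rise, 1.42 CPM in Lip Lip/Lip and 1.5 CPM in Lip +/+.

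At E18 Maf rose in both mutants, with the larger fold change without Csf2rb. Cebpb +/+ premature cells had 25.9, 16.8 and 19.8 CPM and Cebpb -/- ones 98.4, 57.6, 98.98 and 71.2 CPM (1.94 ± 0.27, adjusted p = 0.00014). Csf2rb +/+ cells had 6.54, 3.08, 4.74 and 2.86 CPM and Csf2rb -/- ones 300, 265 and 178 CPM (5.99 ± 0.38, adjusted p = 8.84e-06). Ly6Chi monocytes had 93.1, 85.0 and 66.6 CPM in wild type and 68.7, 79.6, 88.1 and 123 CPM in Cebpb -/-, overlapping groups (0.15 ± 0.21, adjusted p = 0.793). The ranges of monocytes and of Cebpb -/- premature cells overlapped, each scaled in its own count table. Over all groups Maf was lowest in facility 2 wild-type females (0.172 ± 0.0441 CPM, SD, n = 3, from 4 counts in all), just under those of facility 1 (0.253 ± 0.0341 CPM, SD, n = 2, from 2 counts), a difference that was not tested, and highest in Csf2rb -/- cells (248 ± 63.0 CPM, SD, n = 3), above every other group.

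A list of 17 genes of tissue macrophages linked to c-MAF was followed beside Maf. Maff, a small MAF protein without an activation domain, fell in adult CD11b high cells (-1.82), facility 2 females (-2.78), Lip CD11b high (-2.005) and Csf2rb -/- cells (-3.50), and rose in Cebpb -/- premature cells (1.01, all log2 fold changes). Of the tissue macrophage genes, 12 of 15 tested rose in facility 1 females, 13 of 15 in facility 2 females, 10 of 15 in males, 9 of 11 in adult CD11b high cells, 9 of 17 in Cebpb -/- premature cells, 12 of 15 in Csf2rb -/- ones and 14 of 16 in chimeras at 10 weeks. The list medians were 6.26, 6.51, 3.70, 4.13, 1.54, 3.66 and 2.77, where the median of all genes lay between -0.08 and 0.04. Of all genes, 23.2%, 47.6%, 10.9%, 24.0%, 21.5%, 22.5% and 45.5% were called in either direction in these comparisons. In Ly6Chi monocytes 0 of 16 passed. The complement gene C1qa, made by tissue macrophages, rose from 0.555 to 1310 CPM in facility 2 females and from 24.6 to 2720 CPM in adult CD11b high cells, while Mrc1, the mannose receptor of the same list, fell in facility 2 females (-3.52) and adult CD11b high cells (-3.19).

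Klf2 went down in several adult mutants and up in others. Every mutant library lay below every control in 6 of 13 experiments and above every control in 1. Across those experiments 9.75% to 63.2% of all genes were apart in either direction. Wild-type libraries of the adult CD11b set had 27.5, 29.9, 24.8 and 25.3 CPM, above all 4 CD11b low (9.55, 10.0, 15.6 and 20.8 CPM) and all 4 CD11b high mutants (11.9, 6.69, 18.8 and 10.3 CPM). The fall passed in the high fraction (-1.24 ± 0.32, adjusted p = 0.00729) and just missed in the low one (-0.94 ± 0.32, adjusted p = 0.0521), where it passed without CD11b low replicate 4 (-1.15, adjusted p = 0.0309). Klf2 also fell in facility 1 females, from 48.3 and 25.0 CPM to 14.9 and 14.6 CPM (-1.28 ± 0.41, adjusted p = 0.0302), a call lost without wild-type replicate 1 (-0.76, adjusted p = 0.272), without Cebpb -/- replicate 1 (adjusted p = 0.105) or without Cebpb -/- replicate 2 (adjusted p = 0.148), and without the low-count filter (adjusted p = 0.0618). CD11cCre controls had 11.5, 7.84 and 11.01 CPM and deleted libraries 4.34, 4.25, 4.12 and 6.52 CPM (-1.11 ± 0.25, adjusted p = 0.00743). Lip CD11b low cells had 8.85, 6.64, 4.83 and 6.68 CPM against 10.9, 18.5 and 11.9 CPM (-1.09 ± 0.32, adjusted p = 0.00796), lost without Lip +/+ replicate 2 (-0.81, adjusted p = 0.147), in DESeq2 (adjusted p = 0.055) and with 1 fit over the count table (adjusted p = 0.0823). Males had 20.5 to 28.1 CPM against 38.5 to 50.2 CPM in wild type and passed only with the replicate block (-0.85, adjusted p = 0.000641). ATAC-matched Lip Lip/Lip cells had 9.65 to 12.2 CPM against 18.8 to 22.9 CPM and passed only in DESeq2 (-0.90, adjusted p = 0.0481). ATAC-matched Cebpb -/- cells overlapped their controls and passed only without Cebpb -/- replicate 3 (-0.88, adjusted p = 0.0303).

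In E18 cells Klf2 was higher than in lavage cells, between separate experiments, and this difference was not tested. Csf2rb +/+ premature cells had 93.1, 102, 117 and 91.6 CPM and Csf2rb -/- ones 780, 945 and 1101 CPM (3.30 ± 0.20, adjusted p = 6.01e-06). Cebpb +/+ premature cells already had 431, 480 and 428 CPM, and Cebpb -/- ones 456, 343, 788 and 944 CPM, which overlap (0.49 ± 0.31, adjusted p = 0.294). Ly6Chi monocytes went the other way, 1132, 1032 and 948 CPM in wild type against 336, 545, 608 and 778 CPM in Cebpb -/- (-0.86 ± 0.24, adjusted p = 0.0522), apart but not called. The fall in monocytes passed without the low-count filter (adjusted p = 0.00711) and in DESeq2 (adjusted p = 0.0171). It also passed with the replicate block (adjusted p = 0.0206) and with 1 fit over the count table (adjusted p = 0.0157). Over all groups the highest level of Klf2 was that of wild-type monocytes, which overlapped Csf2rb -/- cells, and the lowest that of CD11cCre-deleted cells (4.81 ± 1.14 CPM, SD, n = 4).

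Klf4, a zinc finger factor of monocytes and macrophages, rose where it changed. In facility 1 females it was at 239 and 205 CPM in wild type and 285 and 462 CPM in Cebpb -/- (0.77 ± 0.22, adjusted p = 0.0191), lost without wild-type replicate 2 (0.65, adjusted p = 0.165) or Cebpb -/- replicate 2 (0.37, adjusted p = 0.367). Facility 2 females gave 313, 253 and 280 CPM against 536 and 459 CPM (0.84 ± 0.20, adjusted p = 0.00219). Lip CD11b high cells had 330, 380, 304 and 290 CPM against 198, 273 and 233 CPM (0.45 ± 0.12, adjusted p = 0.00184), and exceeded the CD11b low cells by 0.33 ± 0.11 (adjusted p = 0.0243) with overlapping libraries. That difference between fractions was lost without CD11b low replicate 3 or 4 or CD11b high replicate 1 or 2 (adjusted p 0.0557 to 0.141) and in DESeq2 (adjusted p = 0.0583). With 1 fit over the count table neither it (adjusted p = 0.566) nor the CD11b high call (adjusted p = 0.136) passed. Csf2rb -/- premature cells had 1544, 1232 and 1762 CPM against 562, 468, 546 and 570 CPM (1.57 ± 0.18, adjusted p = 0.000333), and Cebpb -/- ones 674, 513, 971 and 1454 CPM around controls at 753, 859 and 805 CPM (0.14 ± 0.31, adjusted p = 0.788). Over all groups Klf4 was highest in Csf2rb -/- cells (1510 ± 266 CPM, SD, n = 3), which overlapped Cebpb -/- monocytes, and lowest in ATAC-matched Cebpb -/- cells (143 ± 21.3 CPM, SD, n = 3), which overlapped their controls.

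Members of the Krüppel-like family were called in both directions. In facility 2 females 3 of 10 tested members rose and 2 fell, near the share of all genes called there (47.6%). In Csf2rb -/- cells 4 of 11 rose, Klf2, Klf3, Klf4 and Klf6, with 0 falling, where 22.5% of all genes were called. In Lip CD11b low cells 5 of 10 fell and 0 rose, where 25.8% of all genes were called. Klf9 rose in adult CD11b high cells (42.6 to 162 CPM), facility 2 females (28.4 to 61.0 CPM), Lip CD11b high cells (87.4 to 193 CPM) and chimeras at 10 weeks (53.8 to 98.8 CPM, group means).

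Myc fell in 5 sets of adult lavage mutants and rose in the premature cells and in chimeras at 10 weeks. In facility 2 females it was at 128, 152 and 84.3 CPM in wild type and 54.4 and 49.2 CPM in Cebpb -/- (-1.21 ± 0.24, adjusted p = 0.000501). Facility 1 wild-type females had 58.2 and 61.4 CPM, Cebpb +/- ones 106, 145 and 103 CPM and Cebpb -/- ones 58.9 and 86.1 CPM. The heterozygous libraries lay above both other genotypes without passing (0.98 ± 0.24, adjusted p = 0.0698), and the Cebpb -/- change did not pass either (0.29 ± 0.26, adjusted p = 0.456). The facility difference in the change passed for Myc, 1 of 8 regulators, where 7.61% of all genes did (-1.50 ± 0.35, adjusted p = 0.0152), but not without facility 1 Cebpb -/- replicate 2 (-1.23, adjusted p = 0.0515). Males gave 111 and 134 CPM against 68.5 and 65.9 CPM (-0.84 ± 0.25, adjusted p = 0.0365), a call lost under each of the 4 single omissions (adjusted p 0.0788 to 0.269). With 1 fit over the whole count table neither the facility difference (adjusted p = 0.122) nor the male change (adjusted p = 0.247) passed. The summed level of 20 immediate early and dissociation genes moved the same way in males, 4260 to 5700 CPM in wild type and 2530 to 2540 CPM in Cebpb -/-, and its part was not tested.

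Lip Lip/Lip cells held less Myc in both fractions, 40.2, 21.4, 20.5 and 27.6 CPM (CD11b low) and 29.3, 29.1, 30.8 and 17.3 CPM (CD11b high), against 55.6, 102 and 56.0 CPM. Both fractions share the 3 controls. No mutant library reached a control, and the fractions overlapped. The log2 fold changes were -1.44 ± 0.25 (adjusted p = 0.000307) and -1.45 ± 0.26 (adjusted p = 0.000257). Here too the immediate early sum was lower, 1350 to 1440 and 1550 to 1850 CPM against 2550 to 3100 CPM. The ATAC-matched sets repeated the direction, 42.8, 34.4 and 39.7 CPM against 51.6, 71.8 and 69.2 CPM for Cebpb -/- (-0.73 ± 0.18, adjusted p = 0.0145) and 86.0, 73.5, 47.2 and 39.0 CPM against 122, 132, 114 and 112 CPM for Lip (-0.96 ± 0.26, adjusted p = 0.0349). The first was lost without wild-type replicate 2 or 3 (adjusted p = 0.0794 and 0.061) and with 1 fit over the count table (adjusted p = 0.0584), and the second under 5 of 8 single omissions, those of all 4 Lip +/+ libraries and of Lip Lip/Lip replicate 3 (adjusted p 0.0507 to 0.107).

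At E18 Myc was at 24.4, 39.5 and 36.2 CPM in Cebpb +/+ premature cells and 50.0, 75.6, 60.7 and 70.3 CPM in Cebpb -/- ones (0.93 ± 0.25, adjusted p = 0.0144), lost without wild-type replicate 1 (0.74, adjusted p = 0.0692). Csf2rb -/- cells had 40.2, 6.42 and 24.7 CPM, all below the controls at 54.2, 42.2, 55.2 and 61.9 CPM, without passing (-1.07 ± 0.52, adjusted p = 0.18). Ly6Chi monocytes had 11.03, 12.0 and 8.42 CPM in wild type and 27.3, 13.9, 16.0 and 16.4 CPM in Cebpb -/- (0.82 ± 0.31, adjusted p = 0.169). Over all groups Myc was lowest in these wild-type monocytes (10.5 ± 1.87 CPM, SD, n = 3), below all Cebpb -/- monocytes, and highest in wild-type males (122 ± 16.1 CPM, SD, n = 2), which overlapped facility 2 wild-type females.

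Lists of MYC partners, growth genes and cell cycle genes were set beside Myc. In facility 2 females 6 of 10 tested network members fell, among them Myc itself and the MAX partners Mxd4 (148 to 39.4 CPM) and Mxd1 (20.9 to 9.28 CPM), and Mga, another MAX partner, rose (11.8 to 37.4 CPM). In Cebpb -/- premature cells 4 of 12 rose and 0 fell. Of 20 genes of ribosome biogenesis and growth, 8 fell and 2 rose in facility 2 females (median -0.53), 7 of 20 fell and 2 rose in Cebpb -/- premature cells (-0.37), 10 fell and 1 rose in Csf2rb -/- ones (-0.88) and 7 fell and 3 rose in chimeras at 10 weeks (-0.29). Of all genes tested, 47.6%, 21.5%, 22.5% and 45.5% were called in either direction in these 4 comparisons, so the growth genes called in facility 2 females and in chimeras at 10 weeks, 10 of 20 in each, stood near the share of all genes. Of 24 cell cycle genes, 18 fell in facility 1 females, 21 in facility 2 females, 1 in males, 7 in Cebpb -/- premature cells, 14 in Csf2rb -/- ones and 23 in chimeras at 10 weeks, with 1 rising in each. The share of all genes called was 23.2% in facility 1 females and 10.9% in males, so these counts cannot be ranked across the sets. In Ly6Chi monocytes 0 of 24 passed in either direction.

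Spi1 fell in 3 experiments, all of them sets of females or males of the tm1Pfj strain that shared a single fit. Facility 1 wild-type females had 336 and 434 CPM and Cebpb -/- ones 202 and 156 CPM (-1.09 ± 0.22, adjusted p = 0.00118), with Cebpb +/- at 348, 326 and 331 CPM. Facility 2 gave 344, 423 and 460 CPM against 246 and 254 CPM (-0.69 ± 0.20, adjusted p = 0.00832), and males 397 and 464 CPM against 259 and 183 CPM (-0.94 ± 0.21, adjusted p = 0.00666). The male call was lost without wild-type replicate 2 (adjusted p = 0.0839) or Cebpb -/- replicate 2 (adjusted p = 0.127). With 1 fit over the whole count table neither the facility 2 call (-0.71, adjusted p = 0.103) nor the male call (-0.96, adjusted p = 0.128) passed. In these 3 sets every mutant library lay below every wild-type one.

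Other sets did not share the fall of Spi1. The adult CD11b set had 647, 488, 791 and 772 CPM in wild type, 827, 1563, 672 and 522 CPM in the low and 978, 461, 366 and 497 CPM in the high fraction, all overlapping (0.40 ± 0.33 and -0.24 ± 0.33, adjusted p = 0.453 and 0.639). CD11cCre-deleted libraries had 391, 454, 477 and 742 CPM against 667, 662 and 692 CPM (-0.38 ± 0.18, adjusted p = 0.207). Without deleted replicate 4, the shallowest of its group with 2255774 counts, the difference was -0.61 (adjusted p = 8.06e-05), and Myc (-0.64, adjusted p = 0.00655) and Klf4 (0.30, adjusted p = 0.0269) were called as well. With LyzMCre, deleted replicate 1 had 1956 CPM and replicate 2 531 CPM against 692 and 769 CPM, and the log2 fold change of 0.79 ± 0.52 (adjusted p = 0.571) became -0.44 without replicate 1 (adjusted p = 0.0114) and 1.46 without replicate 2 (adjusted p = 3.49e-15). A single library set the direction there. In Lip CD11b high cells Spi1 was not called (0.20 ± 0.12, adjusted p = 0.185) and passed without CD11b high replicate 1 (0.33, adjusted p = 0.0104).

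In Csf2rb -/- premature cells Spi1 rose to 1206, 779 and 1205 CPM from 297, 505, 353 and 437 CPM (1.50 ± 0.23, adjusted p = 0.0017), and in Cebpb -/- ones it did not pass (-0.14 ± 0.22, adjusted p = 0.708; 323, 315, 485 and 450 CPM against 452, 425 and 410 CPM). Ly6Chi monocytes overlapped as well (0.01 ± 0.20, adjusted p = 0.99). Among 24 factors of the PU.1 family, its partners and myeloid lineage factors, Pparg, the nuclear receptor required for alveolar macrophages, fell in facility 2 females (370 to 28.1 CPM), adult CD11b high cells (238 to 37.4 CPM), Cebpb -/- (185 to 8.22 CPM) and Csf2rb -/- premature cells (346 to 59.8 CPM). Irf4, a partner of PU.1, rose in facility 2 females (3.05 to 25.5 CPM), Lip CD11b high cells (2.19 to 68.6 CPM) and Cebpb -/- premature cells (6.31 to 80.9 CPM). Of 15 receptor genes known as PU.1 targets, 6 rose and 4 fell in facility 2 females, where 47.6% of all genes were called, with Itgam, which encodes CD11b, at 2.59 and 242 CPM, in the set where Spi1 itself fell. Over all groups Spi1 was lowest in facility 1 Cebpb -/- females (179 ± 32.8 CPM, SD, n = 2), which overlapped Cebpb -/- males, and highest in LyzMCre-deleted cells, where the mean rests on 1 library, and in Csf2rb -/- cells (1060 ± 246 CPM, SD, n = 3).

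Egr2 fell in 2 adult experiments and rose at E18. In the adult CD11b set wild-type libraries had 69.4, 62.5, 30.7 and 29.3 CPM, CD11b low mutants 19.1, 3.35, 19.0 and 36.6 CPM and CD11b high mutants 2.23, 8.36, 21.4 and 14.2 CPM. The high fraction lay wholly below wild type (-2.10 ± 0.51, adjusted p = 0.00462), and the low fraction overlapped it (-1.24 ± 0.48, adjusted p = 0.0914), passing without CD11b low replicate 4 (-1.61, adjusted p = 0.0399). Facility 2 females gave 78.3, 112 and 43.6 CPM against 40.9 and 26.9 CPM (-1.22 ± 0.32, adjusted p = 0.00467), lost without Cebpb -/- replicate 2 (-0.92, adjusted p = 0.0967). In the ATAC-matched set, Cebpb -/- libraries had 11.8, 12.6 and 38.9 CPM against 43.7, 34.3 and 27.5 CPM (-0.74 ± 0.44, adjusted p = 0.264), and without Cebpb -/- replicate 3 the fall passed (-1.54, adjusted p = 0.000562).

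Cebpb -/- premature cells had 93.3, 54.5, 93.8 and 114 CPM of Egr2 against 52.5, 40.5 and 47.5 CPM (0.90 ± 0.25, adjusted p = 0.0178), lost without wild-type replicate 2 or 3 (adjusted p = 0.0815 and 0.0652). Csf2rb -/- ones had 10.4, 60.4 and 28.02 CPM, all below the controls at 109, 85.4, 83.0 and 70.8 CPM (-1.34 ± 0.50, adjusted p = 0.0885). Without Csf2rb -/- replicate 2 the fall passed (-2.09, adjusted p = 0.012). The relative Egr1 rose in Cebpb -/- premature cells (308 to 1210 CPM), facility 2 females (11.7 to 48.9 CPM) and chimeras at 10 weeks (194 to 549 CPM), and Nab2, a corepressor of EGR factors, fell in facility 2 females (47.8 to 16.4 CPM) and in Csf2rb -/- cells (69.1 to 28.9 CPM). Over all groups Egr2 was lowest in wild-type Ly6Chi monocytes (10.8 ± 6.77 CPM, SD, n = 3) and adult CD11b high mutants (11.6 ± 8.20 CPM, SD, n = 4), which overlapped, and highest in deleted chimera cells at 10 weeks (97.4 ± 12.2 CPM, SD, n = 3), which overlapped their wild type. The lncRNA gene Gm32255 overlaps Egr2, with the same limit on strand.

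**Figure D4:**
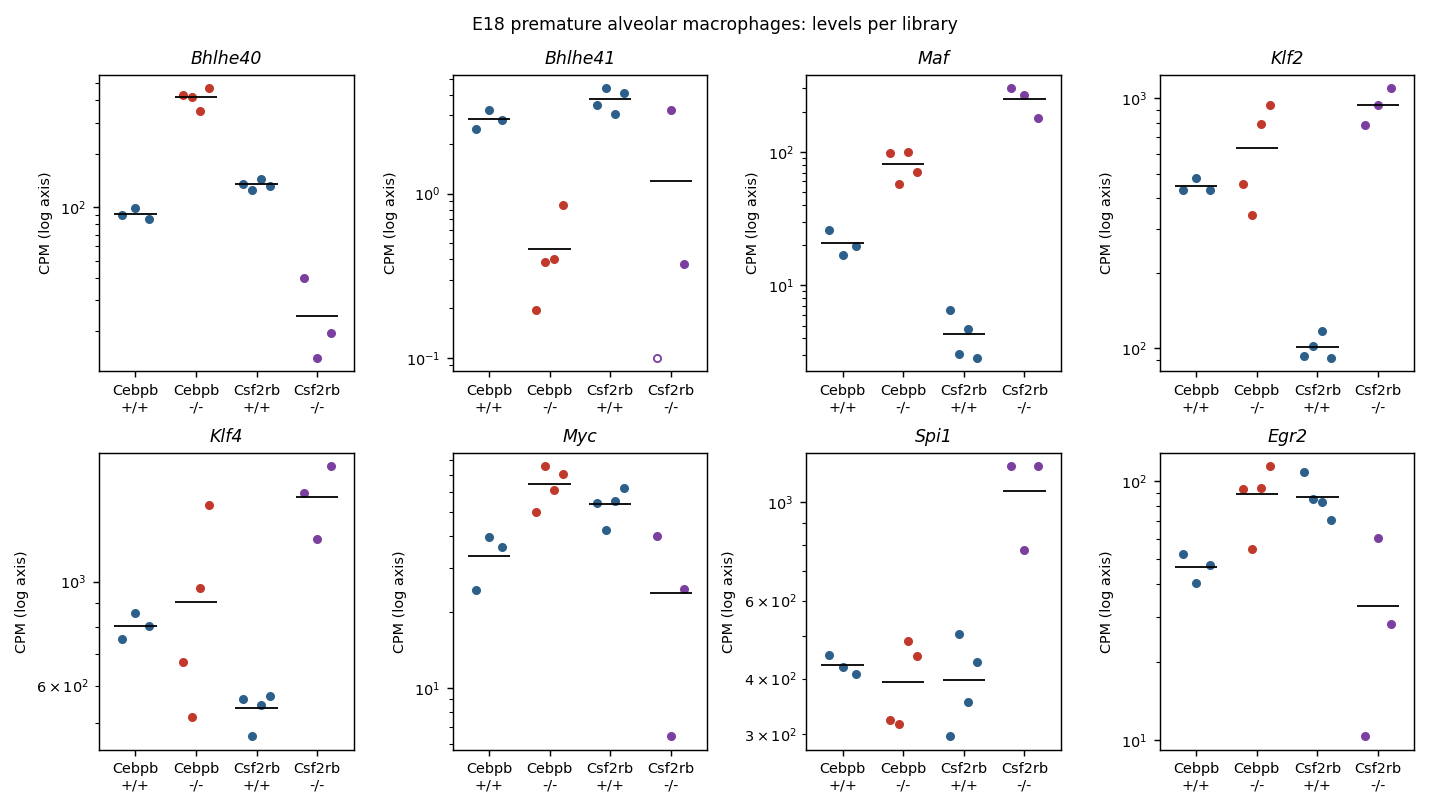
Each panel gives 1 regulator in E18 premature alveolar macrophages, in CPM on a log axis, 1 point per library and a bar at the group mean; an open circle is a library with 0 counts. Bhlhe40 is above its control without Cebpb and below it without Csf2rb, Maf is above in both, and Klf2, Klf4 and Spi1 are apart only in the Csf2rb panels.

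In E18 premature cells other gene groups moved with the genotype. The immediate early and dissociation sum was 11900 to 14000 CPM in Cebpb +/+ and 24400 to 28500 CPM in Cebpb -/- libraries, and 13100 to 16400 CPM in Csf2rb +/+ and 19000 to 26600 CPM in Csf2rb -/- libraries. The summed level of 8 dendritic cell markers was 16.7 to 23.9 against 375 to 875 CPM in the Cebpb set and 1.15 to 4.41 against 101 to 171 CPM in the Csf2rb set. Monocyte markers were at 639 to 771 CPM in Csf2rb +/+ and 2150 to 2960 CPM in Csf2rb -/- cells, and alveolar macrophage markers at 2100 to 2170 against 70.2 to 172 CPM without Cebpb and 1220 to 2130 against 109 to 180 CPM without Csf2rb. The part of these shifts in the levels of the regulators was not tested.

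In the chimeras, where cells of both donors developed in irradiated recipients, Myc, Klf2 and Klf4 were higher in deleted cells at 10 weeks. Myc was at 27.4, 17.3 and 16.3 CPM in wild-type and 36.7, 33.7, 19.8 and 25.4 CPM in deleted cells at 5 weeks, and at 20.0, 22.4, 28.7 and 22.4 CPM against 59.8, 155 and 115 CPM at 10 weeks. Only the 10-week groups lay apart (2.25 ± 0.29, adjusted p = 1.88e-05), and the change differed between the times (1.74 ± 0.40, adjusted p = 0.0104). With replicate numbers as a block in edgeR, the 5-week change of Myc passed as well (0.557, adjusted p = 0.0163). The labels do not say which libraries came from the same recipient. Klf2 was at 51.9, 40.3 and 35.9 CPM against 49.0, 66.0, 56.3 and 71.7 CPM at 5 weeks (0.51 ± 0.19, adjusted p = 0.057; called without wild-type or deleted replicate 1, adjusted p = 0.0346 and 0.0358), and at 28.9, 33.9, 26.7 and 21.0 CPM against 65.3, 89.3 and 94.0 CPM at 10 weeks (1.59 ± 0.19, adjusted p = 5.37e-06). The increase of this difference with time passed too (1.08 ± 0.26, adjusted p = 0.0118). In these interaction tests 3 of 8 regulators passed, where 13.5% of all genes did.

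Klf4 had 354, 439 and 396 CPM against 574, 530, 583 and 434 CPM at 5 weeks (0.42 ± 0.17, adjusted p = 0.0779) and 268, 455, 381 and 362 CPM against 535, 667 and 620 CPM at 10 weeks (0.74 ± 0.16, adjusted p = 0.00157), with no called difference between the times (0.32 ± 0.23, adjusted p = 0.394). The 5-week change of Klf4 passed with replicate numbers as a block (0.504, adjusted p = 0.00694) and in DESeq2 (0.444, adjusted p = 0.0451). Maf had 4.65, 4.80 and 4.14 CPM against 3.91, 3.13, 2.90 and 2.18 CPM at 5 weeks, lower in all deleted libraries without passing (-0.57 ± 0.42, adjusted p = 0.364). At 10 weeks it had 1.55, 0.721, 0.405 and 1.85 CPM against 6.03, 1.24 and 3.59 CPM (1.55 ± 0.51, adjusted p = 0.0196), with 1 deleted library inside the wild-type range. That call was lost without deleted replicate 1 (0.95, adjusted p = 0.136) and without wild-type replicate 3 (1.30, adjusted p = 0.0537). With replicate numbers as a block in edgeR it was lost as well (1.96, adjusted p = 0.0594). At 10 weeks the numbers met the correlation rule for pairing given below, which the labels do not settle. The difference in the change of Maf between the times (2.12 ± 0.66, adjusted p = 0.0426) was lost under 10 of 14 single omissions.

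**Figure D5:**
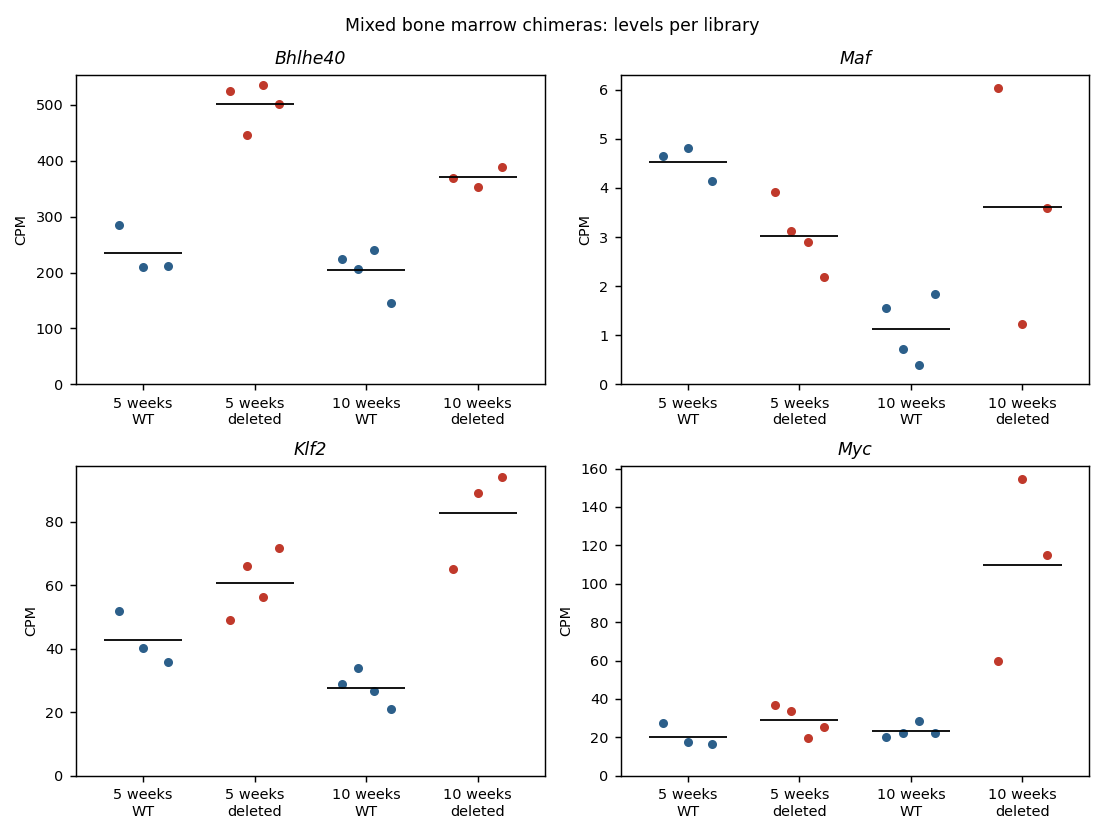
Bhlhe40, Maf, Klf2 and Myc in CPM on linear axes from 0, in wild-type and Cebpb-deleted donor alveolar macrophages 5 and 10 weeks after marrow transfer, 1 point per library and a bar at the group mean. Bhlhe40 is apart at both times, Klf2 and Myc only at 10 weeks, and Maf is lower in deleted cells at 5 weeks and overlaps at 10 weeks.

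Between the times, wild-type donor cells themselves changed, with 4 of 8 regulators called where 18.7% of all genes were. Spi1 went from 423, 421 and 375 CPM to 609, 715, 534 and 669 CPM (0.64 ± 0.17, adjusted p = 0.0117), Bhlhe41 rose as given above, and Maf fell (-1.91 ± 0.48, adjusted p = 0.00897). Klf2 fell by 0.63 ± 0.19 on the log2 scale (adjusted p = 0.0251), a call lost without 5-week replicate 1 or 2 or 10-week replicate 3 or 4 (adjusted p 0.0542 to 0.141) and with 1 fit over the count table (adjusted p = 0.0535), and that of Spi1 was lost without 5-week replicate 3 (0.56, adjusted p = 0.0695). The alveolar macrophage marker sum of these wild-type cells lay between 4150 and 9440 CPM at 5 weeks and between 16200 and 28000 CPM at 10 weeks. In deleted cells it was 1400 to 1690 and 793 to 1970 CPM. The dendritic cell sum lay between 687 and 944 CPM in wild-type and between 3280 and 5700 CPM in deleted cells of 5 weeks. By 10 weeks it lay between 48.0 and 188 CPM in the former and between 432 and 2700 CPM in the latter. Their part in the values of the regulators was not tested.

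Across the 99 libraries, the genes most like a regulator were named by the Pearson correlation of log2(CPM + 1), centred within each experiment, among 9314 genes with a mean of at least 5 CPM. These are descriptions over libraries that share genotypes, depth and scaling. Bhlhe40 was most like Coro2a (0.79), Rftn1 (0.788) and Htra3 (0.761), Maf most like Lacc1 (0.827), Ndst1 (0.819) and Marcks (0.816), and Klf2 most like Klf6 (0.714). Klf4 was most like Hps3 (0.707), Egr2 like Tmod3 (0.702), Bhlhe41 like Rusc2 (0.589) and Myc like Phlda1 (0.555). Between the regulators Bhlhe40 and Bhlhe41 had a correlation of -0.003, and Bhlhe40 and Maf one of 0.177.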

How the data were processed

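Gene counts of 99 RNA sequencing libraries in 31 groups, regions of 2 C/EBPβ chromatin immunoprecipitation libraries and regions of 5 open chromatin libraries of cultured cells were used, of 122 samples in the series; 16 samples were not analysed here. Per the labels' protocols, RNA of sorted cells was primed with barcoded oligo(dT) primers. The deposited count tables hold whole-number counts per gene, and the submitters' processing notes name STAR 2.6.1a and featureCounts 1.6.3, with GRCm38/mm10; the sources used here do not say whether strand or molecular identifiers were used. The notes also name MACS2 2.2.7.1, and the deposited peak lists give for each library a score, the fold enrichment (a ratio) and −log10 p and q of each peak as the authors computed them.

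Each experiment was fitted on its own with edgeR 4.0.16 (TMM scaling, filterByExpr with a minimum count of 10, robust quasi-likelihood test, Benjamini-Hochberg adjustment, called under 0.05), in R 4.3.3. CPM are counts scaled to the TMM-adjusted library size, with factors set within each count table rather than each experiment. Where the smaller group held under 20 counts of a gene, the ratio of summed counts is given with its exact 95% interval. Peaks that overlapped by at least 1 base were merged. Alternatives were DESeq2 size factors, no filter, DESeq2 1.42.0, each library left out in turn, replicate numbers as a block, 1 fit per count table, and other distances, overlaps and q limits for regions. The scripts were tested on simulated data. Pairing by replicate number was judged from the data, by a correlation of deviations over 0.1 in every pair. It was met only between the Lip CD11b fractions (4 pairs, 0.105 to 0.246) and the 10-week chimera donors (3 pairs, 0.126 to 0.145). For the 5-week chimera donors, whose cells also developed in mixed recipients, the values were 0.009 to 0.377 and do not settle the pairing. In all, 0 pairs of libraries were identical. The regulators are named in every comparison, and from each gene list up to 3 called genes per direction with the largest change. The regulators and lists were chosen with earlier results of these data known. A few results on other genes are not reported here.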

Additional observations from a re-analysis of the deposited data

Results flagged for a closer look

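In 104 sets of 4 libraries (the 8 regulators in each group of that size), 1 library lay far from the other 3 in 6, and chance flags about 1 in 20 such groups. Bhlhe41 was at 1.258 CPM in Cebpb -/- Ly6Chi monocyte replicate 3 and at 0 in the others, at 6.586 CPM in wild-type chimera cells of 10 weeks, replicate 1, against 19.01 to 21.4 CPM, and at 64.23 CPM in CD11cCre-deleted replicate 4 against 37.03 to 40.71 CPM. Klf2 was at 6.516 CPM in that same CD11cCre library against 4.122 to 4.336 CPM. Maf was at 4.672 CPM in ATAC-matched Lip +/+ replicate 1 against 0 to 0.6787 CPM, and Myc at 17.33 CPM in Lip CD11b high replicate 4 against 29.09 to 30.84 CPM.

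The change of 4 regulator and contrast pairs differed between settings by an interaction term in edgeR. The Myc change was lower in facility 2 than in facility 1 females by a log2 difference of -1.498 (adjusted p = 0.0152). From 5 to 10 weeks in chimeras, the change of Maf rose by 2.117 (adjusted p = 0.0426), that of Klf2 by 1.084 (adjusted p = 0.0118) and that of Myc by 1.735 (adjusted p = 0.0104).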

How the results depend on the processing

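Over the regulators' log2 fold changes, 1105 of 1191 values with 1 library left out and 796 of 845 under other settings kept their side of the threshold. Among those, 41 and 7 that were not called changed sign, and 1 further value is counted as reversed, Spi1 with LyzMCre (0.786 with all, -0.443 without deleted replicate 1, 1.455 without deleted replicate 2). With 1 library left out, called regulators ranged from 2 to 4 (2 with all) in adult CD11b low cells, 2 to 4 (5) in facility 1 females, 1 to 2 (3) in males, 1 to 2 (1) for the facility difference, 0 to 2 (0) for LyzMCre, 2 to 5 (2) for CD11cCre, 1 to 3 (2) between Lip fractions, 1 to 3 (1) in 5-week chimeras, 2 to 4 (4) between wild-type times, 1 to 5 (3) in ATAC-matched Cebpb -/- and 0 to 2 (2) in ATAC-matched Lip.

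Without the filter, 1 was called in Cebpb +/- (0 with it), 2 for the facility difference, 1 for LyzMCre and 2 in Ly6Chi monocytes (1 with it). DESeq2 called 1 in Cebpb +/-, 2 for the facility difference, 3 in Lip CD11b low (5 in edgeR), 1 between Lip fractions, 2 in monocytes and 3 in 5-week chimeras, and its size factors gave 2 for the facility difference and 2 in 5-week chimeras. One fit per table called 4 in adult CD11b low, 1 in males, 0 for the facility difference, 1 for LyzMCre, 3 in Lip CD11b low, 1 between Lip fractions, 8 in Csf2rb -/- and 2 in monocytes. With the replicate block, 1 was called in adult CD11b low (Maf did not pass the filter there), 1 in Cebpb +/-, 0 for the facility difference, 1 for LyzMCre, 5 for CD11cCre, 2 in monocytes, 3 in 5-week chimeras and 1 in ATAC-matched Lip. Where the numbers met the correlation rule for pairing, the block ended the call of Maf in 10-week chimeras and added Bhlhe41 between Lip fractions (-0.435, adjusted p = 0.036), and changed no other call. Where the samples share only a number, the block left Klf4 in facility 1 females (adjusted p = 0.126), Spi1 in facility 2 females (-0.609, adjusted p = 0.156), the facility difference of Myc (adjusted p = 0.0731) and Bhlhe40 in ATAC-matched Lip (adjusted p = 0.0703) uncalled. In 5-week chimeras, where the pairing is not settled, the block added Klf4 and Myc. A crossed block, added after seeing the data, called 5 in facility 1 females and 1 for LyzMCre.

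Counts of called genes over all genes, with the value as reported in parentheses, moved by over 1.5 times in these cases. With 1 library left out they were 152 to 371 (323) for adult CD11b high against low, 23 to 69 (70) for Cebpb +/-, 1401 to 2205 (2565) for facility 1 females, 519 to 731 (1201) for males, 273 to 1742 (840) for the facility difference, 214 to 2747 (405) for LyzMCre, 1095 to 2688 (1677) for CD11cCre, 1325 to 2809 (2118) for Csf2rb -/-, 114 to 368 (334) for monocytes, 1392 to 2232 (2509) for 5-week chimeras and 906 to 2918 (1508) for the difference between chimera times. With the replicate block they were 1301 (2044) for adult CD11b high, 151 (70) for Cebpb +/-, 1581 (2565) for facility 1 females, 2942 (5253) for facility 2 females, 2272 (1201) for males, 74 (840) for the facility difference, 2667 (1677) for CD11cCre, 946 (2118) for Csf2rb -/- and 3049 (5072) for 10-week chimeras. With one fit per table they were 358 (840) for the facility difference, 886 (1677) for CD11cCre, 824 (2305) for Lip CD11b low, 1745 (3505) for Lip CD11b high, 422 (1742) for Lip high against low, 6008 (2118) for Csf2rb -/- and 566 (334) for monocytes. Without the filter they were 176 (70) for Cebpb +/- and 805 (405) for LyzMCre. With DESeq2 they were 216 (70) for Cebpb +/-. With the crossed block they were 747 (405) for LyzMCre.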

Other observations

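The inhibitors of DNA binding, relatives of the helix-loop-helix factors without a DNA-binding region, moved apart. Id1 fell in adult CD11b high cells (118 to 8.03 CPM), facility 2 females (278 to 17.7 CPM), Cebpb -/- premature cells (475 to 239 CPM), Csf2rb -/- premature cells (410 to 42.7 CPM) and 10-week chimeras (102 to 14.3 CPM). Id3 fell in adult CD11b high cells (110 to 3.60 CPM) and facility 2 females (239 to 23.2 CPM) and rose in Cebpb -/- (139 to 394 CPM) and Csf2rb -/- premature cells (76.6 to 918 CPM) and 10-week chimeras (42.0 to 284 CPM). Tcf4, which encodes an E protein, rose in all 5 of these sets.

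Among cell cycle genes the exception that rose was Ccnd1, which encodes cyclin D1, from 0.640 to 80.1 CPM in facility 2 females, where Mki67 fell from 30.3 to 2.84 CPM, and from 10.8 to 34.1 CPM in 10-week chimeras, where Mki67 fell from 17.6 to 9.15 CPM.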
